A study of Mus musculus with 2 samples.

Results

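Imprinted genes are expressed mainly from the chromosome of 1 parent, and 5 mouse miRNA hairpins that lie in or beside such genes, outside the Dlk1-Dio3 region, were followed in the small RNA of J1 cells. They were Mir335 in Mest, Mir675 in H19, Mir483 in Igf2, and Mir296 and Mir298 in the Nespas/Gnas region, taken by name from 1174 annotated mouse hairpins. Every sequenced tag that matched 1 of the 5 without a mismatch was counted, whatever its level. This gave 77 distinct tags, and 9 of the 10 arms of these hairpins had at least 1 read.

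J1 is a mouse embryonic stem (ES) cell line. AICAR enters cells and activates AMP-activated protein kinase, their energy sensor. J1 cells, kept on gelatin with 1000 U/ml LIF and Knockout Serum Replacement in both conditions, received 1 mM AICAR or the same volume of DMSO (0 mM AICAR) for 24 h. Small RNA of each condition was sequenced as 1 library, so no difference below has a replicate library to check it. Every test compares these libraries and not the conditions. The DMSO library held 18870345 clean reads and the AICAR library 21091226, of which 11.6% and 15.7% matched a hairpin. Levels are given as reads per 1000000 clean reads (RPM), 3 reads were taken as the limit of detection (0.159 RPM for DMSO and 0.142 RPM for AICAR), and all intervals are 95% intervals that cover counting error only.

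The libraries also differed in the lengths of their reads. Tags under 21 nt held 9.49% of the DMSO and 3.81% of the AICAR hairpin reads. Hairpins that mark ES cells (Mir290a to Mir295 and Mir302a to Mir302d, 10 of 10 with reads) summed to 33073 RPM with DMSO and 57228 RPM with AICAR. The 6 hairpins of the miR-290 cluster were each higher with AICAR. The 4 Mir302 hairpins were each lower, but not all clearly. Mir302a stood at 10.4 and 2.37 RPM and Mir302b had 31 and 14 reads. Mir302d was nearly level at 55 and 54 reads, and Mir302c, with 3 and 0 reads, did not exceed the limit of detection. Nearly all of the ES marker sum came from the miR-290 cluster, as no Mir302 hairpin exceeded 10.4 RPM. Markers of other cells summed to far less than the ES markers, but most of these sums were far above each Mir302 hairpin. In the DMSO and AICAR library they were 278 and 429 RPM for 4 neural, 161 and 205 RPM for 3 muscle and 209 and 208 RPM for 3 mesenchymal markers. The 3 blood markers, of which Mir223 had no read, summed to 16.5 and 15.8 RPM. Mir122, the hepatocyte marker, stood at 2.91 and 25.4 RPM, and its part in the results below was not tested.

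A miRNA hairpin is cut by Drosha and Dicer into a duplex, whose strands are named after the arms they come from, 5p and 3p. An Argonaute protein keeps 1 strand, and bases 2 to 8 of that strand, the seed, pair with target mRNAs. The 3′ end can be trimmed, or lengthened by enzymes that add A or U residues, so that 1 arm gives a family of tags. At imprinted loci a methylated control region decides which parental copy is active: Mest and Igf2 are expressed from the paternal copy and encode a hydrolase-like protein and a growth factor, H19 is a maternally expressed long non-coding RNA, and Nespas is a paternally expressed antisense transcript of the Gnas locus. MiR-675 is cut from the H19 RNA itself, and miR-296 has been described as a repressor of the pluripotency factor Nanog in differentiating ES cells. The tags do not tell the parental copies apart.

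The mature sequences show what each arm would present to its targets. They are given 5′ to 3′ from RefSeq (GRCm38.p6), which matched all 5 hairpins and 10 arms, with the seed in capitals.
miR-335-5p: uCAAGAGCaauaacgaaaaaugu
miR-335-3p: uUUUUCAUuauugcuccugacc
miR-675-5p: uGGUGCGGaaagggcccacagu
miR-675-3p: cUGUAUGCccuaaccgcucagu
miR-483-5p: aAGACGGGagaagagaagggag
miR-483-3p: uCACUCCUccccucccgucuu
miR-296-5p: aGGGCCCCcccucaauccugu
miR-296-3p: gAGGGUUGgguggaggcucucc
miR-298-5p: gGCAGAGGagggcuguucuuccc
miR-298-3p: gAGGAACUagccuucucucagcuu
The 10 seeds differed from each other, and no other of the 1738 mature sequences in the RefSeq table carried 1 of them.

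On GRCm38, Mir335 lies at chr6:30741299-30741396 on the plus strand, in an intron of Mest. Mir675 (chr7:142577064-142577147) and Mir483 (chr7:142654924-142654996) both lie on the minus strand, with 77776 bases between them. Mir675 is in an exon of H19, whereas Mir483 is in an intron of Igf2. Mir296 (chr2:174267047-174267125) and Mir298 (chr2:174267504-174267585) are neighbours on the minus strand, 378 bases apart, and no gene is annotated over them on either strand. The annotated 3′ end of Nespas, which is transcribed from the same strand, is 13651 bases from Mir298. The results turn mainly on the latter pair, whose RefSeq hairpins are printed with the mature arms in capitals.
Mir296: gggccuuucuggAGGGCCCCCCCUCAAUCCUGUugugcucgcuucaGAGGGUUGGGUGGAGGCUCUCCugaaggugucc
Mir298: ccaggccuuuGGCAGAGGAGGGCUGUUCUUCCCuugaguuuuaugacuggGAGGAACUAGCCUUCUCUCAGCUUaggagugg

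The Nespas/Gnas pair supplied most of the reads of the 5 hairpins. Mir298 had 15978 DMSO and 16586 AICAR reads (847 and 786 RPM), Mir296 had 4005 and 2322 reads (212 and 110 RPM) and Mir335 had 906 and 857 reads (48.0 and 40.6 RPM). Mir483 had 11 and 15 reads (0.583 and 0.711 RPM). Mir675 had 2 reads, both from the AICAR library. Thus 3 hairpins were well covered, 1 was near the limit of detection and 1 was below it in both libraries.

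By arm, miR-298-5p stood first in both libraries at 846 and 786 RPM. In the DMSO library it was followed by miR-296-3p (139 RPM), miR-296-5p (72.9), miR-335-5p (38.8) and miR-335-3p (9.11), and the counting intervals of neighbours in this order did not overlap. In the AICAR library the order was miR-296-5p (81.6 RPM), miR-335-5p (33.5), miR-296-3p (28.2) and miR-335-3p (6.97), again with separate intervals, so miR-296-3p moved from the second to the fourth place. MiR-483-5p (0.583 and 0.664 RPM) and miR-298-3p (0.477 and 0.427 RPM) were not separated from each other in either library by their intervals. A read of a small RNA library covers the whole molecule, so these levels carry no length correction.

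**Figure D1:**
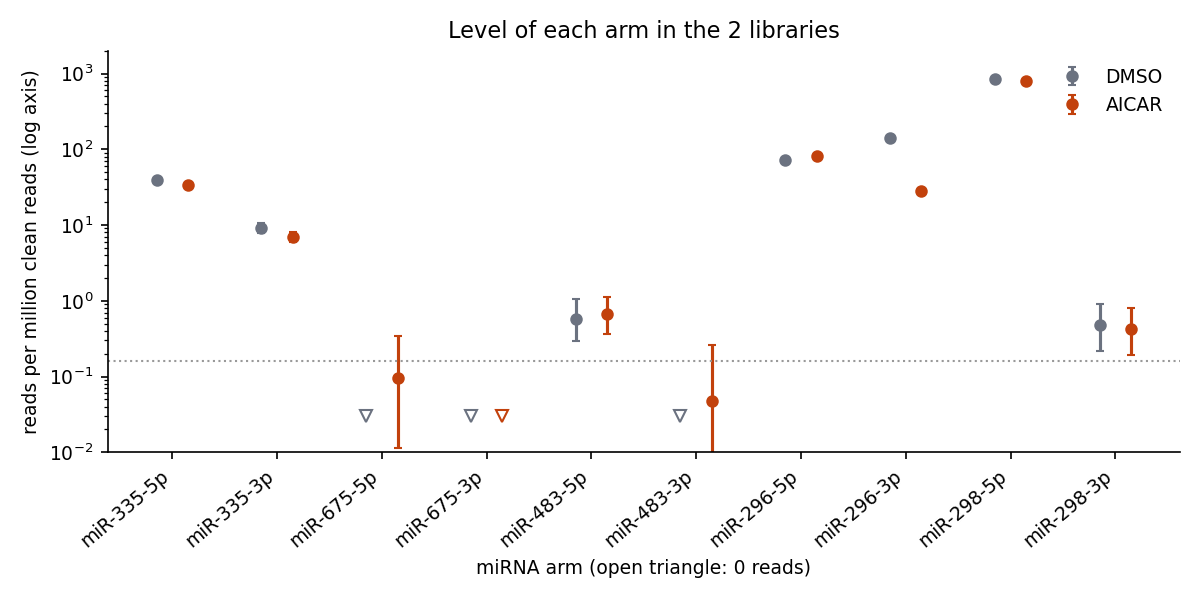
Level of each of the 10 arms in the DMSO (grey) and AICAR (orange) library, in RPM on a log axis, with exact Poisson 95% intervals and a dotted line at 3 reads of the DMSO library. The points of miR-296-3p, at 139 and 28.2 RPM, stand farthest apart of the well-covered arms, and open triangles mark arms with 0 reads.

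Of the 5 arms that reached 1 RPM in at least 1 library, 4 were lower and 1 was higher in the AICAR library. No arm had a fold change of 2 or more, beside 12% of the 508 arms tested over all hairpins. MiR-296-3p had a fold change of 0.5 or less, beside 10% of all arms tested. The median log2 fold change was -0.21 over the 5 arms and 0.13 over all 508.

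MiR-298-5p, the most abundant of the arms, had 15967 DMSO and 16573 AICAR reads, for a fold change of 0.929 (0.909 to 0.949). It was the 33rd most abundant of the 508 arms. MiR-296-5p, from the hairpin 378 bases downstream on the same strand, was read 1376 and 1721 times (DMSO and AICAR), for a fold change of 1.12 (1.04 to 1.20). MiR-335-5p was read 733 and 707 times (DMSO and AICAR), for a fold change of 0.863 (0.777 to 0.958), and its partner miR-335-3p was read 172 and 147 times (DMSO and AICAR), for a fold change of 0.765 (0.609 to 0.959). Each of these differences passed Fisher's exact test (two-sided, Benjamini-Hochberg adjusted over the 508 arms), with adjusted p = 8.19e-11 for miR-298-5p, 0.00334 for miR-296-5p, 0.00958 for miR-335-5p and 0.0293 for miR-335-3p. All 4 were well within a 2-fold change. The call of miR-335-3p was lost under 5 other ways of counting (adjusted p = 0.0538 to 0.435, Fisher's exact test), that of miR-335-5p with tags identical to the reference (0.152) and that of miR-298-5p with tags of at least 21 nt (0.0603). The call of miR-296-5p was lost with TMM and median-ratio scaling (0.276 and 0.670), and the directions of miR-298-5p and miR-296-5p depended on how the reads were counted or scaled. MiR-298-5p had a fold change of 1.15 (1.13 to 1.16) once tags with added 3′ bases were counted, and miR-296-5p had one of 0.823 relative to hairpin reads.

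MiR-296-3p had 2627 DMSO and 595 AICAR reads, for a fold change of 0.203 (0.185 to 0.222), the 5th lowest of the 508 arms. The paper also lists this arm as down-regulated. It reports the same direction by real-time PCR over independent experiments, although the size of the change was not quite alike. For the reads counted here, the p-value of Fisher's exact test was too small to be represented and was returned as 0. The arms of this hairpin thus differed in direction per clean reads, whereas relative to hairpin reads both were lower. With tags of at least 21 nt only, miR-296-3p had 110 and 136 reads and a fold change of 1.11 (adjusted p = 0.523, Fisher's exact test), so the difference was carried by shorter tags.

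The tags of miR-296-3p are shown because they hold this difference. They are read from the library, 5′ to 3′ with T for U and with the seed in capitals, and the last is the full mature sequence.
18 nt: gAGGGTTGggtggaggct
19 nt: gAGGGTTGggtggaggctc
21 nt: gAGGGTTGggtggaggctctc
22 nt: gAGGGTTGggtggaggctctcc
The 18-nt tag ended 4 bases before the mature 3′ end and had 2445 DMSO and 432 AICAR reads (130 and 20.5 RPM), for a fold change of 0.158 (0.142 to 0.175). The 19-nt tag was read 60 and 17 times (DMSO and AICAR), for a fold change of 0.253 (0.139 to 0.440). The 21-nt tag had 19 and 24 reads and the 22-nt tag 85 and 103 reads, with fold changes of 1.13 (0.593 to 2.18) and 1.08 (0.806 to 1.46). All 4 tags start at the same base and share the seed. The shorter pair was lower in the AICAR library, and the intervals of the longer pair included 1.

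**Figure D2:**
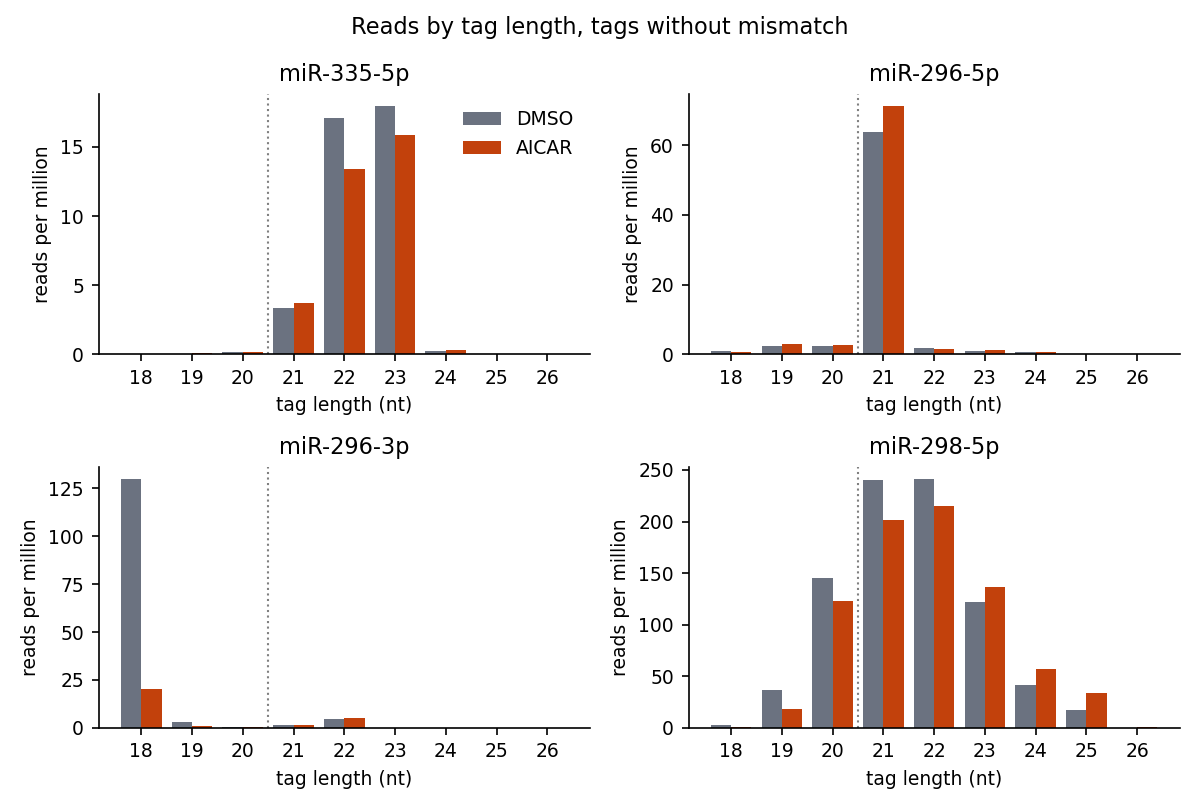
Reads per 1000000 clean reads by tag length (18 to 26 nt) for 4 arms in the DMSO (grey) and AICAR (orange) library, each panel with its own scale, counting tags without mismatch. The dotted line separates tags under 21 nt, where miR-296-3p has a single bar of 130 RPM in the DMSO library that stands at 20.5 RPM in the AICAR library.

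An 18-nt tag was seldom the leading form of an arm. Among the 508 arms tested, 8 had a most-read tag of 18 nt, and 3 of these 8, miR-296-3p included, had a fold change of 0.5 or less. Reads of 18 nt were less frequent in the AICAR library on the other hairpins as well, with 34610 DMSO and 17679 AICAR reads, for a fold change of 0.457. Taken singly, 57 tags of 18 nt on other hairpins had 50 or more reads in all and a median fold change of 0.377, and 5 of the 57 were at or under the 0.158 of the miR-296-3p tag. Since 18 nt is also the shortest length in the files, shorter forms of miR-296-3p could not be seen.

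Tags under 21 nt made up 95.8% (95 to 96.5) of the miR-296-3p reads in the DMSO library and 77.1% (73.6 to 80.3) in the AICAR library, a difference of -18.7 points (adjusted p = 6.62e-41, Fisher's exact test over 453 arms). This was the 1 of the 5 arms whose share was lower by 10 points or more, beside 14.1% of all arms tested. An arm with a share under 10% in the DMSO library, such as miR-296-5p or miR-335-5p, could not fall by that much. The share of miR-298-5p was 21.9% (21.3 to 22.5) with DMSO and 18% (17.4 to 18.6) with AICAR (adjusted p = 2.06e-17, Fisher's exact test). MiR-296-5p held 8.14% and 8.02%, miR-335-3p 14.5% and 10.2%, and miR-335-5p 0.409% and 0.707% of its reads on such tags, and none of these 3 differences passed the test (adjusted p = 1.00, 0.541 and 0.744, Fisher's exact test). Over all 453 arms the median share was 4.99% with DMSO and 2.50% with AICAR, and 348 arms were lower and 64 higher in the latter. Of the reads of miR-483-5p and miR-298-3p, none were under 21 nt, which at 9 to 14 reads per library allows shares of up to 21.5% to 29.9%.

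On the other hairpins longer tags had higher fold changes, from 0.457 at 18 nt and 0.429 at 19 nt through 0.665 at 20 nt and 1.01 at 21 nt to 1.47 at 22 nt, 1.57 at 23 nt, 1.65 at 24 nt and 1.47 at 25 nt. MiR-298-5p, with reads at every one of these lengths, showed a like order within a single miRNA. Its fold change was 0.399 (0.239 to 0.651) at 18 nt, 0.483 (0.425 to 0.549) at 19 nt, 0.843 (0.798 to 0.889) at 20 nt, 0.839 (0.804 to 0.875) at 21 nt, 0.894 (0.857 to 0.931) at 22 nt, 1.12 (1.06 to 1.18) at 23 nt, 1.39 (1.27 to 1.52) at 24 nt and 2.00 (1.75 to 2.29) at 25 nt. MiR-296-5p is read mainly at 21 nt, where its fold change was 1.12 (1.04 to 1.21), and its values at 18, 19 and 20 nt were 0.760, 1.25 and 1.10 with intervals that included 1. MiR-335-5p, read mainly at 22 and 23 nt, had fold changes of 0.784 (0.666 to 0.922) and 0.884 (0.758 to 1.03) there, below those of the other hairpins at these lengths. The part of the length difference between the libraries in each arm's fold change was not tested.

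**Figure D3:**
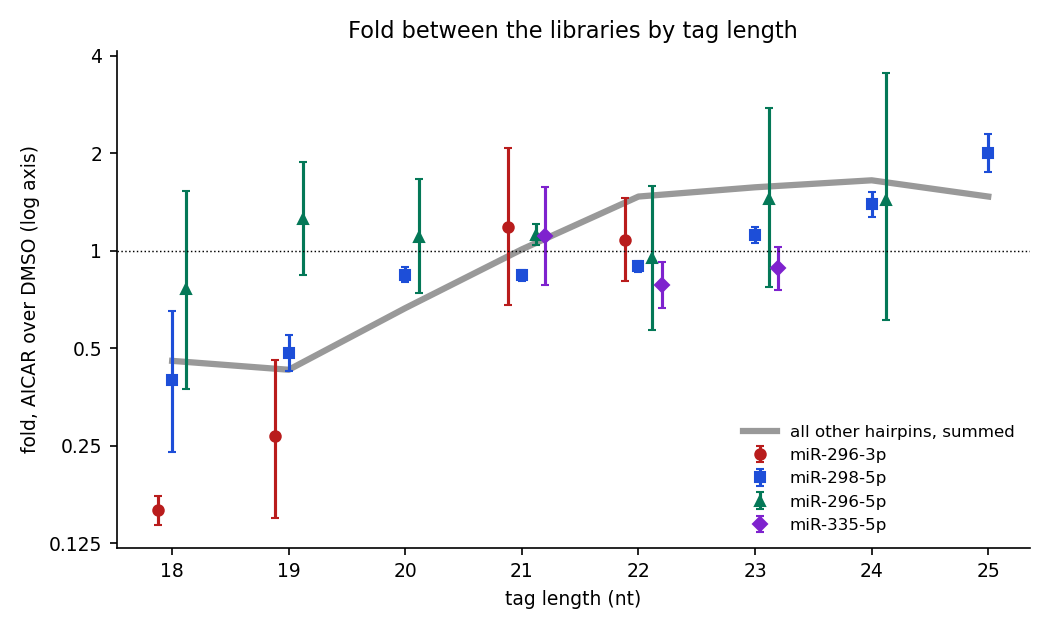
Fold change (AICAR over DMSO, log axis) by tag length in nt for 4 arms, with 95% intervals, and for the summed reads of all other hairpins (grey line). Points are drawn where an arm had at least 20 reads over both libraries, miR-298-5p runs from 0.399 at 18 nt to 2.00 at 25 nt, and the 18-nt point of miR-296-3p, at 0.158, lies under the grey line.

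The 3′ end of miR-298-5p was spread over several bases. Its leading tags without added bases, shown with the seed in capitals, begin at the same base and end over a range of 5 bases.
20 nt: gGCAGAGGagggctgttctt
21 nt: gGCAGAGGagggctgttcttc
22 nt: gGCAGAGGagggctgttcttcc
23 nt: gGCAGAGGagggctgttcttccc
24 nt: gGCAGAGGagggctgttcttccct
25 nt: gGCAGAGGagggctgttcttccctt
The 22-nt and 21-nt tags led with 4499 and 4488 reads in the DMSO and 4508 and 4239 in the AICAR library. The 23-nt tag, which is the RefSeq mature form, had 2298 and 2870 reads. Tags that ended past the mature 3′ end held 7.18% (6.79 to 7.59) of the reads in the DMSO and 11.9% (11.4 to 12.4) in the AICAR library, and tags that ended before it held 78.2% and 70.8%. By contrast, 87.6% and 87.4% of the miR-296-5p reads ended at the mature 3′ end. For miR-335-5p, 46.5% and 47.9% ended there, and almost all others were 1 or 2 bases shorter.

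**Figure D4:**
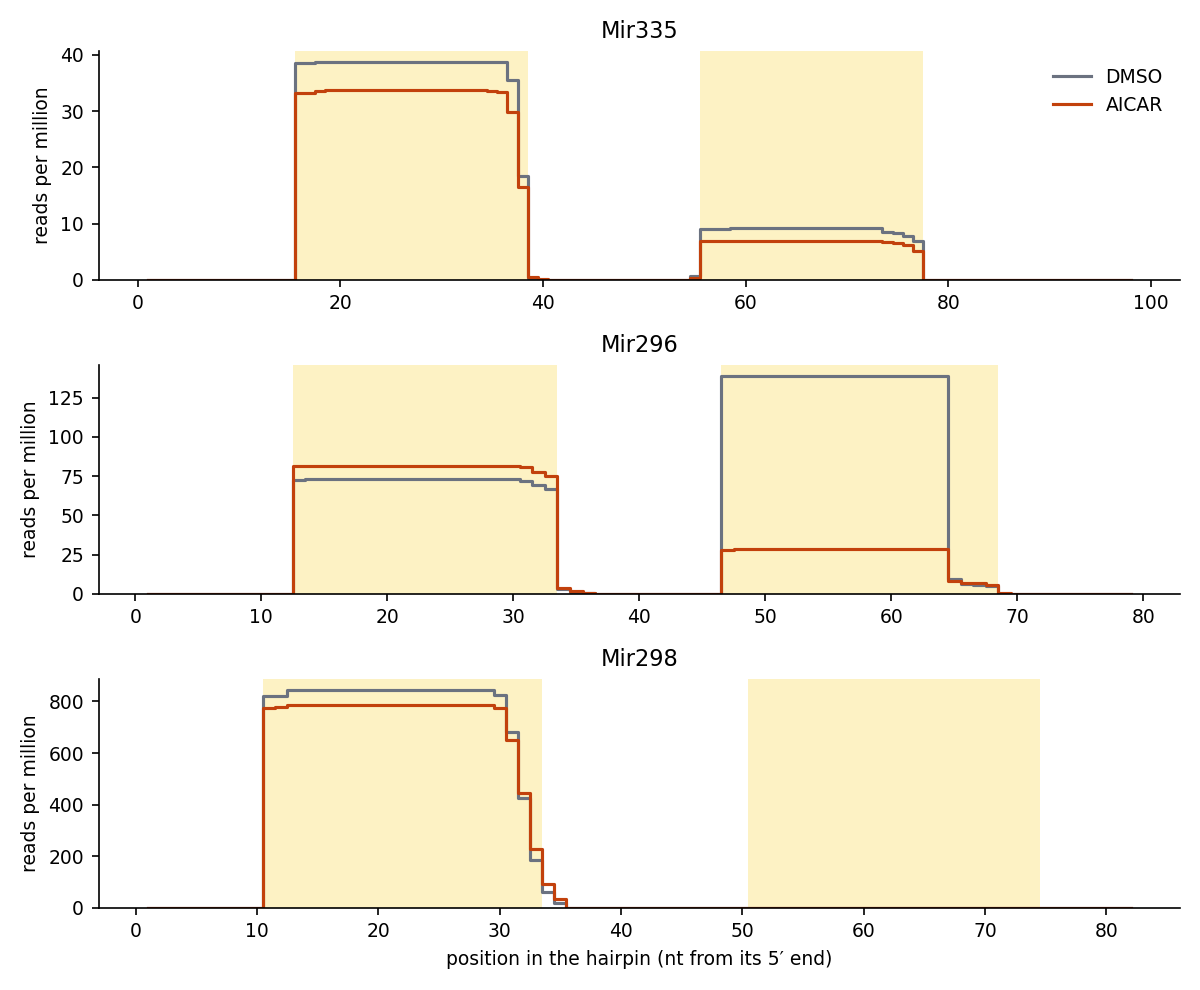
Reads per 1000000 clean reads over each base of the hairpins Mir335, Mir296 and Mir298, by position in nt from the hairpin 5′ end, in the DMSO (grey) and AICAR (orange) library, with the mature arms shaded. On the 3p arm of Mir296 the DMSO line drops from near 139 RPM to the level of the AICAR line 4 bases before the mature end, whereas the 3p arm of Mir298 is at the baseline on this scale.

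The ratio of the arms of a hairpin within a library needs no scaling for depth between libraries. It does not remove the difference in read lengths between them. The 5p arm held 34.4% (32.9 to 35.9) of the Mir296 reads in the DMSO and 74.3% (72.5 to 76.0) in the AICAR library, a difference of 39.9 points (adjusted p = 1.56e-209, Fisher's exact test over 404 hairpins) and the 3rd largest of the 404 in size. Mir296 was the 1 of the 3 hairpins tested (Mir335, Mir296 and Mir298) whose 5p share was higher by 10 points or more, beside 8.91% of all hairpins tested. Mir298, at 99.9% in the DMSO library, could not rise by that much. With tags of at least 21 nt only, the 5p share was 92.0% and 92.1%. Mir335 was read mainly from its 5p arm, at 81.0% (78.3 to 83.4) and 82.8% (80.1 to 85.2), a difference of 1.79 points (adjusted p = 0.637, Fisher's exact test). Mir298 was read nearly wholly from its 5p arm, at 99.9% in both libraries, with 9 reads of miR-298-3p in each. Of the 11 and 15 reads of Mir483, 1 came from the 3p arm.

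The 5′ end decides the seed, and it is given here for tags without added 3′ bases. In each library 91.3% or more of the reads of each arm below began at the base of the reference tag. Tags that began at another base than the reference tag held 0.546% and 0.990% of the miR-335-5p reads, 8.72% and 4.76% of the miR-335-3p reads, and 0.145% and 0.116% of the miR-296-5p reads in the DMSO and AICAR library. The share of miR-296-3p was 0.343% with DMSO and 2.35% with AICAR (adjusted p = 1.19e-04, Fisher's exact test over 453 arms), on 9 and 14 reads, while its reads with the usual start were fewer in the latter. For miR-298-5p the share was 3.12% (2.86 to 3.40) and 1.24% (1.08 to 1.42), on 498 and 205 reads (adjusted p = 1.80e-30, Fisher's exact test). The median over all 453 arms was 2.80% and 2.21%.

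Most of these miR-298-5p reads began 2 bases downstream, with 479 DMSO and 182 AICAR reads (25.4 and 8.63 RPM), for a fold change of 0.340 (0.285 to 0.404). These counts leave out tags with added 3′ bases, which were also frequent at this start. With AT, AA or A added, its 21-nt tag had 265 and 195, 174 and 79, and 91 and 30 reads (DMSO and AICAR). Their fold changes were 0.658 (0.544 to 0.795), 0.406 (0.307 to 0.533) and 0.295 (0.188 to 0.450). A fold change of this start with all such tags included was not computed. The leading tags of this start without added bases are shown with bases 2 to 8, the seed that this start would give, in capitals.
19 nt: cAGAGGAGggctgttcttc
20 nt: cAGAGGAGggctgttcttcc
21 nt: cAGAGGAGggctgttcttccc
22 nt: cAGAGGAGggctgttcttccct
The 19-nt tag was read 293 and 125 times (DMSO and AICAR), for a fold change of 0.382 (0.307 to 0.472). The 20-nt tag had 73 and 9 reads and the 21-nt tag 38 and 5 reads, with fold changes of 0.110 (0.0485 to 0.221) and 0.118 (0.0362 to 0.300). The 22-nt tag had 43 and 28 reads and a higher fold change of 0.583 (0.349 to 0.960). Among tags of 20 nt the usual start gave 2667 and 2567 reads, for a fold change of 0.861 (0.815 to 0.909), and the intervals of both starts were separate at this length. They were also separate at 19 and 21 nt, where the usual start had fold changes of 0.566 (0.481 to 0.665) and 0.845 (0.810 to 0.881). At 18 and 22 nt they overlapped, with 0.370 (0.172 to 0.748) against 0.447 (0.211 to 0.903) for the usual start at 18 nt, and 0.896 (0.860 to 0.935) for the usual start at 22 nt. Of the RefSeq mature sequences, mmu-miR-7086-5p carries the same 7 bases at its seed.

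Beyond tags that match the hairpin to their last base, many reads follow an arm and then end in bases that the hairpin does not hold. Tags were counted here when at least 16 bases matched and 1 to 4 bases were added, a definition chosen after seeing the data. For miR-298-5p these tags outnumbered the exact ones, with 17576 of 33543 reads (52.4%, 51.9 to 52.9) in the DMSO library and 26457 of 43030 reads (61.5%, 61.0 to 61.9) in the AICAR library (adjusted p = 2.70e-138, Fisher's exact test over 483 arms). It ranked 30th and 28th of the 483 arms by this share, whose median was 8.57% with DMSO and 11.2% with AICAR. The leading tags are shown with the added bases in capitals.
24 nt: ggcagaggagggctgttcttcccA
22 nt: ggcagaggagggctgttcttcA
23 nt: ggcagaggagggctgttcttccA
25 nt: ggcagaggagggctgttcttcccAT
25 nt: ggcagaggagggctgttcttcccAA
The full mature form with 1 added A had 2824 DMSO and 4320 AICAR reads (150 and 205 RPM), for a fold change of 1.37 (1.30 to 1.44). With A and T added it was read 1160 and 2302 times (DMSO and AICAR), for a fold change of 1.78 (1.65 to 1.91), and with 2 A residues 962 and 1519 times, for a fold change of 1.41 (1.30 to 1.53). The first added base was A in 83.6% and 85.9% of these reads, against 49.2% and 48.3% over all arms. These shares depend in part on the hairpin sequence, because a base that equals the next hairpin base is not counted as added. Mir298 continues with u after the mature form, so a T added there counts as part of an exact tag. Additions followed the 23-base mature form most often, in 44.2% and 44.3% of the reads with added bases.

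MiR-296-3p also carried added bases, mainly after the 18-base form. Of its reads, 430 of 3057 (14.1%, 12.9 to 15.3) in the DMSO and 452 of 1047 (43.2%, 40.2 to 46.2) in the AICAR library had them (adjusted p = 1.50e-77, Fisher's exact test), the 4th largest difference in size among the 483 arms. Tags with added bases after 18 matching bases had 270 DMSO and 278 AICAR reads (14.3 and 13.2 RPM), for a fold change of 0.921 (0.776 to 1.09), while the 18-nt tag without added bases had a fold change of 0.158. Examples are shown with the added bases in capitals.
19 nt: gagggttgggtggaggctA
20 nt: gagggttgggtggaggctAA
20 nt: gagggttgggtggaggctAT
21 nt: gagggttgggtggaggctAAA
22 nt: gagggttgggtggaggctAAAA
The tag with 1 added A was read 67 and 43 times (DMSO and AICAR), for a fold change of 0.574 (0.382 to 0.855). With 2, 3 and 4 A residues the reads were 60 and 57, 33 and 37, and 18 and 33, with fold changes of 0.850 (0.581 to 1.24), 1.00 (0.610 to 1.66) and 1.64 (0.897 to 3.09). The values thus ran upward with length, and the intervals of the latter 3 included 1. Among tags of at least 21 nt, the share with added bases was 62.7% and 64.8% (adjusted p = 0.909, Fisher's exact test).

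Of the 5 arms, miR-296-3p and miR-335-3p had a share with added bases that was higher by 10 points or more, 2 of 5 beside 11.2% of all arms tested. MiR-335-3p had it in 14.4% (10.2 to 20) of 201 reads in the DMSO and 25.8% (20.2 to 32.3) of 198 reads in the AICAR library (adjusted p = 0.0241, Fisher's exact test), mostly as 1 base after the 21st. Its 2 leading forms are shown with the added base in capitals.
22 nt: tttttcattattgctcctgacA
22 nt: tttttcattattgctcctgacT
The form with A had 15 and 26 reads and that with T 2 and 11 reads. The share was 2.62% and 4.12% for miR-296-5p (adjusted p = 0.0827, Fisher's exact test) and 0.408% and 0.980% for miR-335-5p (adjusted p = 0.453), with neither past the test.

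**Figure D5:**
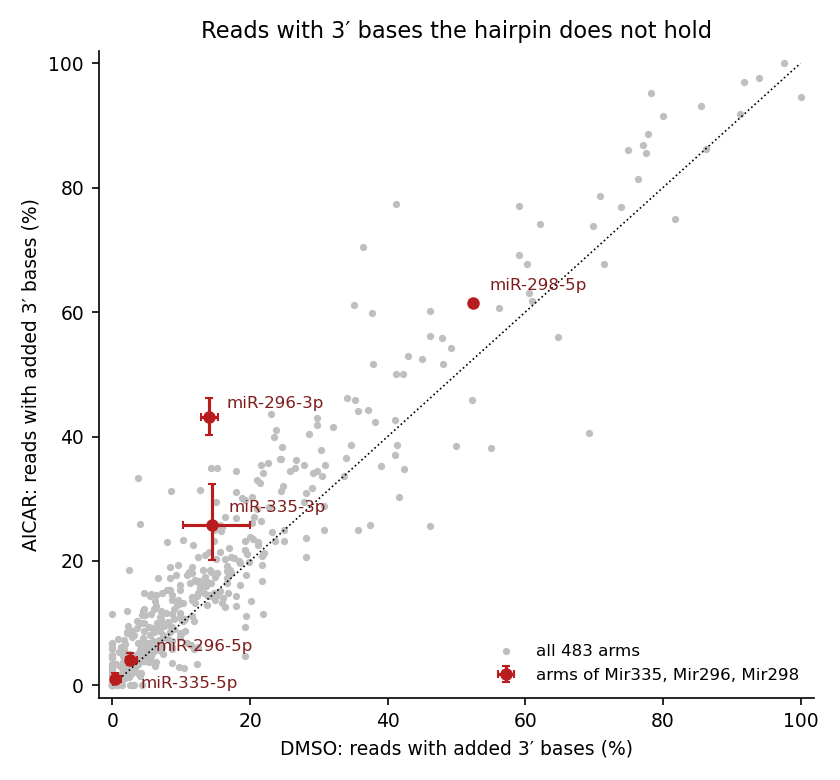
Share of reads with 1 to 4 added 3′ bases, in percent, in the DMSO library (x axis) and the AICAR library (y axis) for 483 arms (grey) and 5 arms of Mir335, Mir296 and Mir298 (red, with Wilson 95% intervals). MiR-296-3p lies far above the dotted line of equal shares at 14.1% and 43.2%, and miR-298-5p at 52.4% and 61.5%.

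With these reads added to the exact ones, miR-296-3p was read 3057 and 1047 times (DMSO and AICAR), for a fold change of 0.306 (0.285 to 0.329). MiR-298-5p was read 33543 and 43030 times (DMSO and AICAR), for a fold change of 1.15 (1.13 to 1.16), and thus turned from lower to higher in the AICAR library. MiR-335-3p was read 201 and 198 times (DMSO and AICAR), for a fold change of 0.881 (0.721 to 1.08), which no longer passed the test (adjusted p = 0.275, Fisher's exact test). MiR-296-5p and miR-335-5p had fold changes of 1.14 (1.06 to 1.22) and 0.868 (0.782 to 0.963). The median log2 fold change over all arms tested was 0.23 with this count.

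The hairpins on chromosome 7 were hardly read in either library. MiR-483-5p had 11 DMSO and 14 AICAR reads (0.583 and 0.664 RPM), for a fold change of 1.14 (0.480 to 2.77), too few for a difference to be seen. Its 22-nt mature form had 8 and 6 of these reads, and the form 1 base longer had 1 and 6. MiR-483-3p was read once, in the AICAR library. MiR-675-5p was read 2 times, also in the AICAR library, as its exact 22-nt mature form, and this tag lies in H19 itself. MiR-675-3p had no read, for which the exact Poisson interval reaches up to 0.195 RPM with DMSO and 0.175 RPM with AICAR. MiR-298-3p, on chromosome 2, had 9 reads in each library, 7 and 8 of them as the 24-nt mature form.

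The genes that hold the hairpins, or lie beside them, left few fragments in the small RNA. Tags that matched the spliced transcripts outside the hairpins summed to 10 DMSO and 12 AICAR reads for Mest, 2 and 4 for H19, 7 and 5 for Nespas and 38 and 35 for Gnas, which encodes a G protein subunit. The fold changes were 1.07 (0.425 to 2.77) for Mest, 1.79 (0.256 to 19.8) for H19, 0.639 (0.160 to 2.34) for Nespas and 0.824 (0.505 to 1.34) for Gnas, so no difference was detectable at this depth. Igf2 had 0 and 5 reads, and none remained when tags that also match another gene were left out. These fragments come from size-selected RNA and do not measure the level of the host transcripts.

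Of the 77 tags that matched the 5 hairpins, none matched another of the 1174 hairpins. A search of 141767 annotated transcripts found 1 of the 77, the miR-675-5p tag, in a gene other than its own hairpin, and that gene was its host H19. Matches elsewhere in the genome were not analysed here, which bears most on the 18-nt tag of miR-296-3p.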

How the data were processed

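The authors size-selected RNA of 18 to 30 nt, sequenced 1 library per condition, removed low-quality and contaminant reads, merged identical clean reads, and deposited the distinct tags with their counts, neither normalized nor aligned. Whereas the methods describe adaptor ligation to small RNA, the labels name an Illumina TruSeq RNA kit. The submitters' processing notes name the build mm9. It was not used here, and positions are those of GENCODE vM21 and RefSeq on GRCm38.

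Tags were matched without mismatch to the hairpins. An arm is the side of the hairpin midpoint on which a tag lies, its most-read tag is the reference, and tags starting within 2 nt and ending within 4 nt of it were counted. Testing was limited to arms that reached 1 RPM in either library, and shares needed 20 reads in each library. Fisher's exact test (two-sided), Benjamini-Hochberg adjustment over all arms, exact binomial and Poisson intervals and Wilson intervals of shares were computed with scipy 1.17.1 (Python 3.11.15). TMM factors came from edgeR 4.0.16. The reads carry no molecular identifiers. The steps were tested on simulated data, and other denominators, tag rules, length limits and filters were tried. The members and lists were chosen with earlier results of these data known, and the named arms are all arms of the 5 hairpins. The control library is titled J1_U but its treatment label is DMSO.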

Additional observations from a re-analysis of the deposited data

How the results depend on the processing

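No paired analysis was possible because each condition has 1 library. Of 141 alternative values, 121 kept their direction and side of the threshold or stayed within their intervals. Some of the 121 could hardly move, such as those of miR-483-5p and miR-298-3p. These were judged only by their wide intervals (0.480 to 2.77 and 0.315 to 2.54), whatever their direction. MiR-296-3p stayed lower under each scaling and tag rule except with tags of at least 21 nt, where its fold change was 1.11. With such tags no arm of the 5 hairpins was at 0.5 or less (0), beside 6.79% of the 486 arms tested. The 5p share of Mir296 then differed by 0.0942 points. The added-base share differed by 2.05 points for miR-296-3p and by 11.4 points for miR-335-3p (adjusted p = 0.0504 for the latter, Fisher's exact test). MiR-298-5p reversed to 1.10 with 1 mismatch allowed and to 1.15 with added bases counted, a setting chosen after seeing the data, and was 0.975 with tags of at least 21 nt (adjusted p = 0.0603, Fisher's exact test). MiR-296-5p reversed to 0.823 relative to hairpin reads, and lost the call with TMM (1.05) and median-ratio scaling (1.02). MiR-335-5p lost it with identical tags only (0.884). MiR-335-3p lost it with identical tags (0.752), an identical start (0.798), tags of at least 21 nt (0.803), 1 mismatch (0.909) or added bases (0.881), and its share of short reads turned to 1.63 points higher when short meant under 22 nt. Without a filter on RPM, 2 arms at or under the limit of detection, miR-675-5p and miR-483-3p, had reads in the AICAR library only. They thus counted as 2-fold or more, beside 24.2% of the 1146 arms with reads. Other than the reads and denominators these settings change by construction, the cause was not tested. Scaling to hairpin reads moved the median log2 fold change of all arms from 0.13 to -0.31, and under it 22% of all arms were at 0.5 or less. The count of tags with a sole match in the genome was not run, as no genome sequence was used here. Depth limits Mir483, Mir675 and miR-298-3p, for which a 2-fold difference could not be told from none.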

Other observations

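Mir184, another hairpin reported from an imprinted region, lies on chromosome 9, on the other strand and 107579 bases from Rasgrf1. Its arm miR-184-3p (Mir184-3p) was read 849 times with DMSO and 1985 times with AICAR (45.0 and 94.1 RPM), a fold change of 2.09 (1.93 to 2.27), a comparison of these libraries without replicates.

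In the imprinted Dlk1-Dio3 region on chromosome 12, 79 arms of 57 hairpins were tested. Of these, 70 were lower and 9 higher in the AICAR library, 27 had a fold change of 0.5 or less and 1 had one of 2 or more, and the median log2 fold change was -0.75, beside 0.13 over all arms and -0.21 over the 5 arms of Mir335, Mir296 and Mir298. Of all 508 arms, 219 were lower and 289 higher, 51 (10%) had a fold change of 0.5 or less and 61 (12%) had one of 2 or more. These counts were known from earlier results of the data.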
